A study of Mus musculus with 9 samples.

Results

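The 1122 regions described here are the broad m6A peaks of wild-type replicate 1, the rows of its peak list that span 1500 bp or more. They were selected on their measured width, and they are 1122 of 22531 peaks (4.98%) and 16.4% of all bases under peaks in that list. The other 21409 peaks of the same list are called narrower peaks. The study sequenced 9 libraries of m6A immunoprecipitations and inputs from mouse embryonic stem cells (mESCs) that were wild-type, Mettl3KO or Zc3h13KO, grown in serum with LIF-conditioned medium on gelatin. The labels give the same background, Rosa26:CRE with Bir ligase, for the knockout cells and the controls alike. The 2 wild-type immunoprecipitations, made with a rabbit polyclonal antibody against m6A, are the subject here, and 7 libraries were not analysed here. The labels call both replicates without stating that they came from separate cultures. The peak names of replicate 1 do not contain the word wild-type whereas those of replicate 2 do, so the identity of both lists rests on the sample labels.

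N6-methyladenosine (m6A) is the most abundant internal modification of messenger RNA. It is deposited during transcription by a complex built around Mettl3 and Mettl14, mostly at adenosines within short consensus sequences of which GGACU is the best known form. In mammalian mRNA it is found most often in long internal exons and near stop codons, and it shortens the lifetime of many transcripts in mESCs. In m6A-RIP-seq, RNA fragments bound by the antibody are sequenced beside an input, and a peak is a stretch of the genome where the immunoprecipitation exceeds that input. Neighbouring methylated sites can be joined in 1 peak when they lie close together, so a width is not a count of modified bases.

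Because a broad peak can run past the annotated start of its gene, some genomic sequence under broad peaks could be read from the promoter windows of RefSeq on GRCm38, the build that mm10 also names. A window holds 250 bases before and 50 bases after a start site. Of 32851 windows, 80 lay whole under a broad peak, and these fell under 67 broad peaks (5.97%). By comparison, 327 narrower peaks (1.53%) covered a window whole, a difference that the selection on width carries with it. Among the 80 windows, 14 were of protein-coding genes with the 250 bases before the start outside every annotated gene body. These bases are shown for Foxd3, Fzd9 and Fzd10, taken from the 6 widest peaks over such windows. They were chosen because these genes recur in the results on whole-gene coverage and on Frizzled receptors. Capitals mark GGACT, or AGTCC where the motif lies on the opposite strand. Each is read 5′ to 3′ on the strand of its gene, outside every annotated gene body.
Foxd3, chr4:99656049-99656298, plus strand: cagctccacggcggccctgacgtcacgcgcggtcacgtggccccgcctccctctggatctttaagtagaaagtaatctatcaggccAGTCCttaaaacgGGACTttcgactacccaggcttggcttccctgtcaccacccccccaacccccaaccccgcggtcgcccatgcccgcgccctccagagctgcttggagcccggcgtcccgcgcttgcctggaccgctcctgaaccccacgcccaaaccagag
Fzd9, chr5:135251048-135251297, minus strand: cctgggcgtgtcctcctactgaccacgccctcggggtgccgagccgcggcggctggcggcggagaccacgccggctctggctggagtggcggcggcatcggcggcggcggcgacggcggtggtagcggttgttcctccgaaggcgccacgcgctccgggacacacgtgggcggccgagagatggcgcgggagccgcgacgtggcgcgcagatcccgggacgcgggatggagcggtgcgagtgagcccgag
Fzd10, chr5:128600856-128601105, plus strand: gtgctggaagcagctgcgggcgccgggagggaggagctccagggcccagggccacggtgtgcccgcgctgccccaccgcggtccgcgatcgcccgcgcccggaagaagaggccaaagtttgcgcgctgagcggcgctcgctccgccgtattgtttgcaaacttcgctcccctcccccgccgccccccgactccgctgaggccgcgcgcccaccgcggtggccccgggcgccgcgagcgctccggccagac

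The Foxd3 sequence held the motif once on each strand, and the Fzd9 and Fzd10 sequences held it on neither. Foxd3 encodes a forkhead transcription factor, and Fzd9 and Fzd10 encode Wnt receptors of the Frizzled family. Among the 80 covered windows, 43 (53.8%) contained GGACT on either strand, against 45.5% of all 32851 windows. On the strand of the gene alone the shares were 33.8% and 26.1%. A match describes the letters of the window and not a methylated base. The summit, the position of strongest signal, fell inside a window in 9 broad peaks. Of these 9 sites, cut to 30 bases around the summit, 1 held the motif. That site is shown with the one of highest fold enrichment for comparison.
Smad3, chr9:63758007-63758036, minus strand: ggccagcaaagtttggctgggggttGGACT
Gm17762, chr2:18027248-18027277, plus strand: caagatttaggcatcctcttacactgctgg

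Smad3 encodes a signal transducer of the TGF-beta pathway. Its broad peak was 1657 bp wide, with a fold enrichment over input of 17.2, and its summit lay inside a replicate 2 peak. Gm17762 is a long non-coding RNA gene that shares its broad peak of 2585 bp with Gm33085 and A930004D18Rik. The fold enrichment there was 44.3.

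The broad peaks had a median width of 1866 bp, with quartiles of 1650 and 2206 bp and a maximum of 6760 bp. Their median fold enrichment was 7.87, with quartiles of 4.77 and 13.3, and that of the narrower peaks was 5.29. The −log10 q, the significance that the peak caller gave each peak, had a median of 114 for broad and 27.2 for narrower peaks. All broad peaks had a −log10 q of at least 14.7. These 3 measures come from the call that chose the peaks and are given as descriptions. The widths formed a continuous tail without a gap at 1500 bp. Just inside the threshold stood peaks at Itpkb, a kinase gene of inositol phosphate metabolism, and Pdzd8, each 1500 bp wide. Fgd5, the remodelling subunit gene Arid1a and the transcription factor gene Sp1 followed at 1501, 1502 and 1503 bp. Just outside stood Cracd at 1499 bp, Tigd3 at 1498 bp, Prss35 at 1497 bp, and Dnase1 and Adra2c at 1496 bp each.

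**Figure D1:**
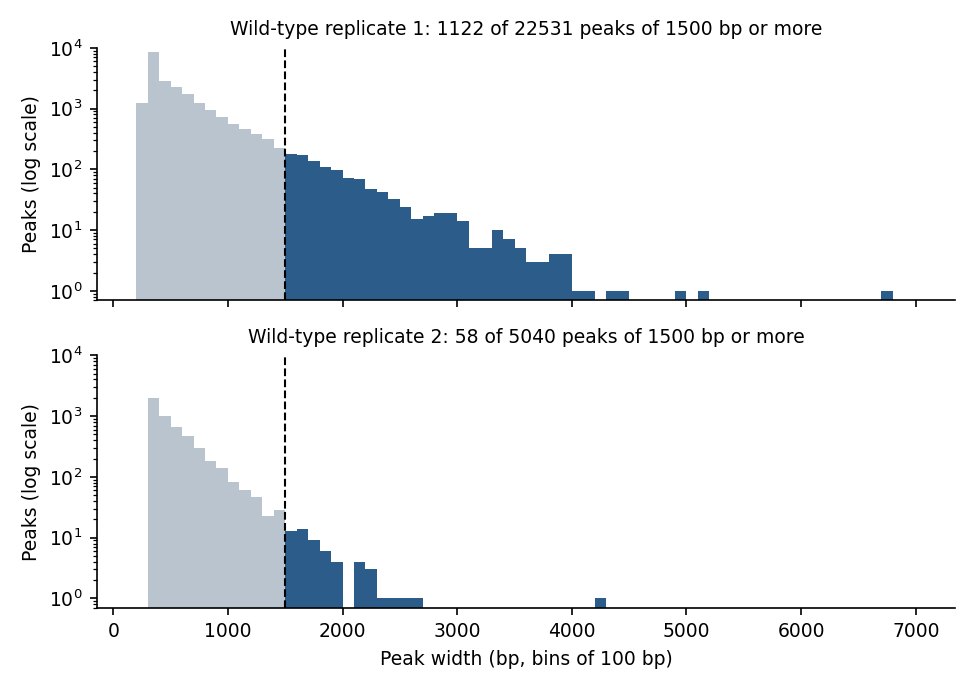
Number of peaks (log scale) by peak width in bins of 100 bp, for wild-type replicate 1 (top) and replicate 2 (bottom). The dashed line marks 1500 bp, and blue bars are peaks at or above it, 1122 of 22531 in replicate 1 and 58 of 5040 in replicate 2.

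The widest peak of all lay in Rai1, which encodes a nuclear regulator of transcription. It ran over chr11:60184986-60191745 (6760 bp) at 7.28 times the input, and its −log10 q was 191. In replicate 2 the same stretch held 4 separate peaks of 490, 943, 838 and 772 bp, which together covered 45.0% of it. Tacc2, a coiled-coil protein gene of the centrosome, had the next widest at 5133 bp and a fold enrichment of 15.9, of which 1 replicate 2 peak of 307 bp covered 5.98%. Plec, the gene of the cytoskeletal linker plectin, carried a peak of 4993 bp that no replicate 2 peak touched. Zfp865, a zinc finger gene, stood apart among these, since 2 replicate 2 peaks of 2503 and 1442 bp covered 89.6% of its 4403 bp. The broad peak of Gli2, a transcription factor of Hedgehog signalling, was 3956 bp wide with a fold enrichment of 2.66, and 4 replicate 2 peaks covered 59.6% of it. Helz2, a helicase gene, also had 4 replicate 2 peaks over 3814 bp, with a fold enrichment of 24.0 in replicate 1. Irs2, which encodes an adaptor of insulin signalling, had 2 replicate 2 peaks over its 4382 bp, but the summit of replicate 1 lay in neither. The lncRNA gene 9530052E02Rik shares that broad peak. A single replicate 2 peak overlapped the broad peaks of Ndor1, Wdr81, Arhgef17, Sall2 and Rlf. Frem2, an extracellular matrix gene, and Stard9, a kinesin gene, had none over 3967 and 3821 bp.

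**Figure D2:**
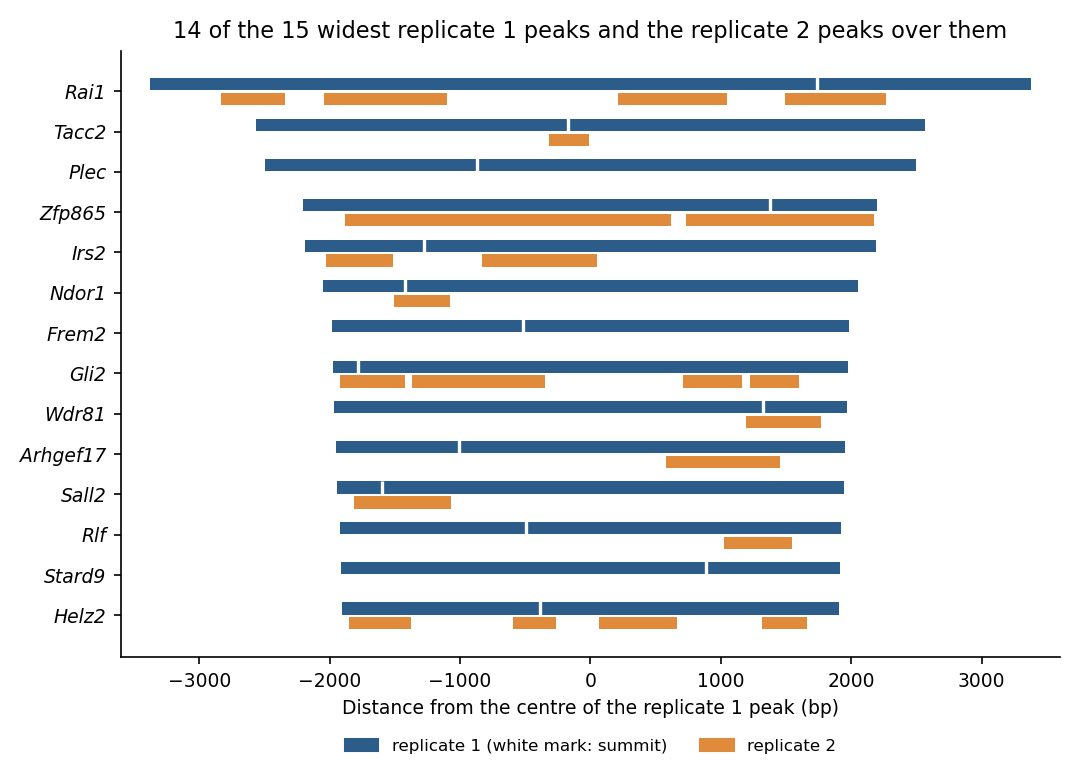
The 14 drawn of the 15 widest replicate 1 peaks (blue, white mark at the summit) and the replicate 2 peaks over them (orange), by distance in bp from the centre of the replicate 1 peak. Replicate 2 shows 4 peaks at Rai1, Gli2 and Helz2 and none at Plec, Frem2 and Stard9.

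None of the 10 broad peaks with the highest fold enrichment was among the 15 widest. The highest fold enrichment of a broad peak was 65.3 at Csf1, which encodes macrophage colony-stimulating factor, over 1589 bp that the lncRNA gene Gm40121 shares. Gas1, a coreceptor gene for Hedgehog ligands, followed with 61.4 over 2041 bp, and the Wnt receptor gene Fzd1 with 47.3 over 2392 bp. Each of these had its summit inside a replicate 2 peak, where the fold enrichment was 5.40 at Csf1 and the higher of the pair of values was 11.2 at Gas1 and 8.18 at Fzd1. Camta1, a calmodulin-binding transcription activator gene, had 44.3 over 2370 bp, and Kcnh1, a potassium channel gene, 38.9 over 2740 bp. Neither had a replicate 2 peak, and nor did Skida1 with 38.5. Lratd1 had 44.0 and 3 replicate 2 peaks of 360 to 384 bp. At Adam8 and Spef1l, which share a peak with the lncRNA gene Gm16201, the fold enrichment was 37.8. It was 36.9 at Dock3, which shares its peak with the pseudogene AA543401. By −log10 q the order was led by Tbc1d2 and Wdr81 at 329 each, then Wscd2 at 323, Mafa at 322 and Tmem28 at 318. At Tbc1d2, Wscd2 and the pancreatic transcription factor gene Mafa, replicate 2 had peaks of 1419, 1402 and 1374 bp that held the summit. Tmem28 had none. Zcchc2, the shared peak of Mast1 and Dnase2a, Fzd8, Csf1 and Casz1 completed this group with values from 288 to 302, each with the summit inside a replicate 2 peak. The lncRNA genes Gm31850, Gm7160, Gm38426 and Gm13205 share the peaks of Tbc1d2, Zcchc2, Mast1 and Casz1, respectively.

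Replicate 2 was not used to choose the broad peaks, so its peaks allow a comparison. The labels give 1 wild-type input library, however, so both lists may share that control, and its part in their agreement was not tested. A replicate 2 peak overlapped 634 of the 1122 broad peaks by at least 1 bp (56.5%, exact 95% interval 53.5 to 59.4). It overlapped 3674 of the 21409 narrower ones (17.2%, interval 16.7 to 17.7), and 19.1% of the whole list. Under a stricter definition, an overlap of at least 50% of each peak, the shares were 14.3% (interval 12.3 to 16.5) for broad and 12.9% for narrower peaks. A wider peak has more room to be overlapped by 1 bp, so the summit, a single position, was compared as well. It lay inside a replicate 2 peak for 547 broad peaks (48.8%, interval 45.8 to 51.7) and for 3558 narrower peaks (16.6%, interval 16.1 to 17.1), with 18.2% over all peaks. The odds ratio was 4.77 (adjusted p = 9.85e-127 by Fisher's exact test, two-sided, over 6 tests). These intervals and p-values count peaks, which are not replicates of a condition, and they cover counting error only.

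The share also rose with −log10 q, and broad peaks stood high on that scale. When all replicate 1 peaks were split into 10 equal groups by −log10 q, 635 of the 1122 broad peaks fell into the highest one. There the summit lay in a replicate 2 peak for 59.8% of broad peaks (interval 55.9 to 63.7) and 58.5% of narrower peaks (interval 56.1 to 60.9), with an odds ratio of 1.06 and an adjusted p of 0.601 by Fisher's exact test. In the next group down the shares were 41.9% and 38.0%, and in the one below that 31.4% and 26.7% (Fisher's exact test, adjusted p = 0.344 for each). At a like −log10 q, the difference between broad and narrower peaks in this share was thus not detectable with these numbers of peaks. Across width classes the share climbed from 5.00% below 400 bp to 43.1% at 1000 to 1500 bp and 47.1% at 1500 to 2000 bp. It was 53.7% (interval 41.1 to 66.0) for the 67 peaks of 3000 bp or more, which differed from the class below by less than the intervals. The median −log10 q rose over the same classes from 17.0 to 146.

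**Figure D3:**
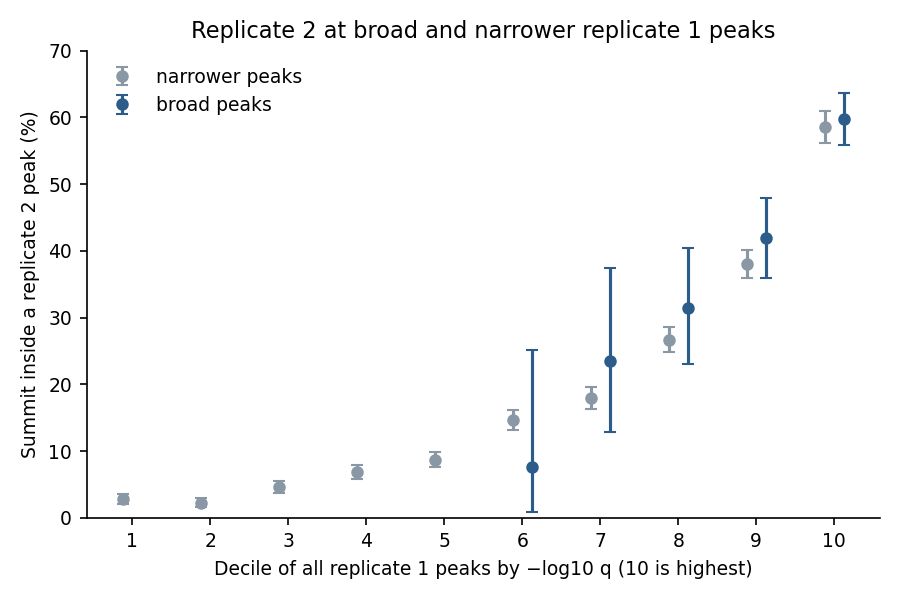
Share of replicate 1 summits inside a replicate 2 peak (%), by decile of −log10 q, for broad (blue) and narrower (grey) peaks with exact 95% intervals. Groups of fewer than 20 peaks are left out. In decile 10 the shares were 59.8% and 58.5%.

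Width itself recurred in a small subset. In replicate 2, 58 of 5040 peaks (1.15%) reached 1500 bp. Among replicate 1 peaks with the summit in a replicate 2 peak, that replicate 2 peak was as wide for 46 of 547 broad ones (8.41%, interval 6.22 to 11.1). For narrower ones this held for 16 of 3558 (0.450%, interval 0.257 to 0.729). A replicate 2 peak that held several replicate 1 summits was counted once for each, so the tests do not count separate replicate 2 peaks. At a threshold of 1000 bp in both lists these shares were 18.3% and 1.76%, and at 2000 bp 3.20% and 0.232%. At 1500 bp the odds ratio was 20.3 (adjusted p = 1.04e-27 by the same exact test). Within the highest group of −log10 q alone the counts were 33 of 380 and 3 of 947, for which the odds ratio was 29.9 (adjusted p = 2.47e-15 by the same exact test). For most broad peaks replicate 2 was narrower. The replicate 2 peak at the summit had a median width of 681 bp, with a median ratio of 0.352 to the width in replicate 1. For narrower peaks the median width was 454 bp and the ratio 0.748. The ratio divides by the width that chose the groups, so the selection itself lowers it for broad peaks. A broad peak also has room for several replicate 2 peaks. Of the 1122, 488 met none, 400 met 1, 200 met 2, 27 met 3 and 7 met 4. At least 2 thus lay at 234 broad peaks (20.9%) and at 100 narrower peaks (0.467%). Where replicate 2 overlapped at all, it covered a median of 45.7% of a broad peak and 73.5% of a narrower one. The selected width is the divisor in these shares too.

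Of the 58 replicate 2 peaks of 1500 bp or more, 50 (86.2%) overlapped a broad replicate 1 peak, and these met 4.46% of the 1122. Among the 10 widest of them, Bcl11b, a zinc finger transcription factor gene, had peaks of 2378 and 2340 bp in replicates 1 and 2, with fold enrichments of 34.7 and 18.9. Sema6c, a semaphorin gene, had 2617 and 2274 bp, with fold enrichments of 10.5 and 11.3. Nynrin had 3593 and 2681 bp, Tsc22d1 2065 and 2215 bp, Prr12 2706 and 2185 bp, and Ankrd34a 1960 and 2256 bp. The other 8 lay over narrower replicate 1 peaks only. The widest replicate 2 peak of all was among them, 4286 bp at the imprinted non-coding RNA gene Meg3 (chr12:109545493-109549778), with a fold enrichment of 21.4. Replicate 1 had 3 peaks there, none wider than 563 bp or above a fold enrichment of 2.17. At Skor1 the replicate 2 peak was 2177 bp wide, and the widest of 2 in replicate 1 was 688 bp. Antkmt had 1693 against 612 bp. Pou4f2, Zfp36, Zfp827, Ctu1 and 1 of the Lemd1 peaks lay closer to the threshold, at 1144 to 1492 bp in replicate 1. These 8 are named because of their values in replicate 2.

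Broad peaks lay almost entirely at annotated genes. Only 15 of them (1.34%) had no gene within 500 bp, against 5.65% of narrower peaks. They had 1280 host genes within 500 bp, of which 1132 were protein-coding and 126 lncRNA genes. At 224 broad peaks more than 1 gene lay that close. A protein-coding host was found for 96.3% of broad and 88.4% of narrower peaks. The 1132 protein-coding hosts are 5.17% of all 21900 protein-coding genes and 12.5% of the 9038 with any replicate 1 peak. Of all 1280 hosts, 934 (73.0%) also had a narrower peak. A replicate 2 peak lay within 500 bp of 768 protein-coding hosts (67.8%), and of 34.9% of the protein-coding genes with narrower peaks only. Exons were not used here, so a width is a distance on the genome, introns included.

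Gene-body lengths of hosts and of other genes with peaks overlapped widely. The median gene body of a protein-coding host spanned 25058 bp (interval 22810 to 27226), and that of a protein-coding gene with narrower peaks only 26024 bp (interval 25213 to 26987). Over genes of every biotype the medians were 22348 bp (interval 20337 to 24825) and 20310 bp (interval 19669 to 21013), so the order of the medians turned with the biotypes counted and the intervals overlapped in each. In replicate 2 the 68 hosts of peaks of 1500 bp or more had a median of 12766 bp (interval 7643 to 20337), below the 21153 bp of its other genes with peaks. The median of all protein-coding genes was 17146 bp. The hosts covered a wide range, with quartiles of 9140 and 69230 bp. In consequence a broad peak could be a small part of its gene or nearly all of it. Among the 1015 broad peaks with the summit in exactly 1 protein-coding gene, the median covered 6.96% of the gene body, and 96 (9.46%) covered at least 50%. For narrower peaks these values were 1.20% and 0.438%, a difference that the selection on width carries with it. At least 90% was covered in 7 compact genes. Hps6, a subunit gene of a lysosome biogenesis complex, led with 97.1% of 2696 bp and a fold enrichment of 12.4, with no replicate 2 peak. Tmem102 followed with 95.7% of 2030 bp, and there replicate 2 had a peak of 1419 bp at the summit. Fam43b, the sulfotransferase gene Chst14 and the hydrolase-like gene Abhd16b had 95.6%, 93.9% and 93.7%. Foxd3 had 93.3% of 2373 bp, with a replicate 2 peak of 1321 bp at the summit, and Fzd9 had 91.8% of 2110 bp with one of 933 bp. The promoter sequences of the last pair are those shown above.

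Along the gene, summits of broad peaks were concentrated towards the end. Strand was known for the hosts of 800 of these 1015 peaks, and position is again a description. The final 10% of the gene body held 36.1% of broad summits (interval 32.8 to 39.6) and 31.6% of narrower ones (interval 30.8 to 32.4). The initial 10% held 56 of the 800 broad summits (interval 5.33 to 8.99%) and 10.8% of narrower ones (interval 10.3 to 11.3). The median broad summit lay 3151 bp before the gene end, and the median narrower summit 6458 bp before it. From the gene start the medians were 17180 and 21309 bp, so this distance was shorter for broad peaks too. Gene bodies under 10000 bp held 183 of the 800 broad and 1999 of the 14064 narrower summits, so gene length enters these distances. Relative to the gene body, the median summit lay 82.2% and 76.0% of the way from the start. Very close to the ends the order turned round. Within 1000 bp of either end lay 16.7% of broad and 21.8% of narrower summits, and within 2000 bp 41.3% and 36.7%. With a width threshold of 1000 bp, the shares within 1000 bp were 21.0% and 21.7%. A wide peak whose summit lies near an end has little room left within the gene. The selection on width thus enters this order, and its part was not tested. At Gli2 the summit lay 470 bp before the gene end and at Ndor1 860 bp before it, whereas at Wdr81 it lay 618 bp after the start and at Gas1 341 bp after it. Within the peaks, 66.1% of broad and 82.7% of narrower summits lay in the middle 50% of the width.

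**Figure D4:**
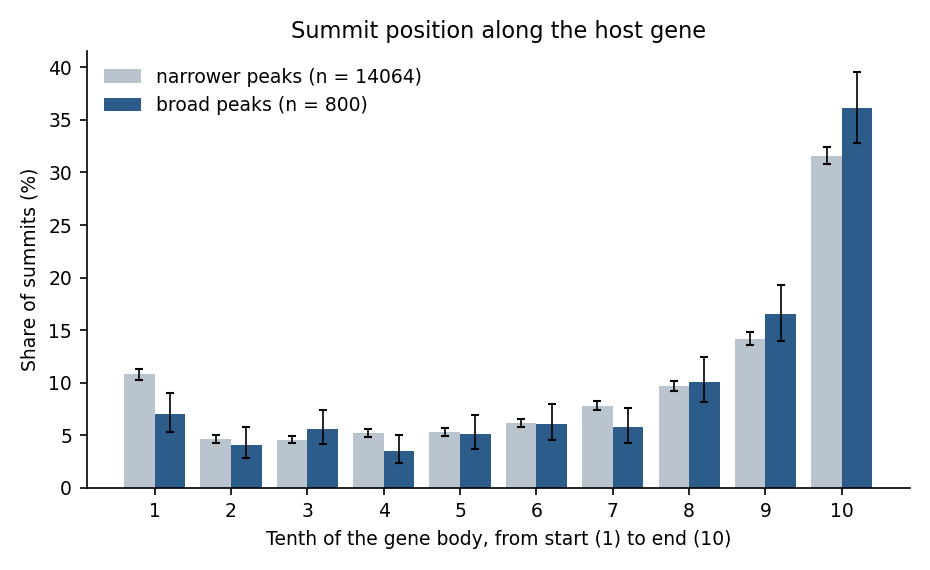
Share of summits (%) in 10 equal parts of the protein-coding host gene, from start (1) to end (10), for 800 broad and 14064 narrower peaks with exact 95% intervals. The last part held 36.1% of broad and 31.6% of narrower summits.

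Across the 16 lists of genes examined, the share of genes with a broad peak ran from 0 to 61.5%. The counts stand beside 5.17% of all protein-coding genes with a broad peak and 12.5% of those with any replicate 1 peak. No set test was run. Of 13 Fat, Dachsous, Celsr and teneurin genes, which encode very large cell surface proteins, 8 had a broad peak (61.5%). These were also all of the list with any replicate 1 peak. Fat1 had 2 broad peaks, of 2701 and 1596 bp. At Celsr1 the peak was 3551 bp wide with a fold enrichment of 28.8, and a replicate 2 peak of 373 bp lay in it. Dchs1 had 3168 bp and 5.66, and Fat2 1858 bp and 18.7. Celsr2, Celsr3, Tenm3 and Tenm4 made up the rest. Replicate 2 had no peak over the broad peaks of Fat1, Fat2, Celsr2 and Celsr3. It had 2 each over those of Dchs1, Tenm3 and Tenm4, at most 410, 949 and 362 bp wide. The 57 clustered protocadherin genes, neuronal adhesion molecules on chromosome 18, counted 20 with a broad peak. Gene bodies in that cluster overlap, and the 20 genes shared 10 broad peaks of 1567 to 3431 bp, with fold enrichments of 7.69 to 19.1. Replicate 2 peaks overlapped 4 of the 10. Pcdhga1, Pcdhga2 and Pcdhga3 therefore do not stand for separate observations.

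A selection of developmental transcription factors, most of them of the Sox, Fox, Gata, Pou and proneural families, with Eomes and Otx2 besides, counted 15 of 32 (46.9%), with a median gene body of 4612 bp. These 15 were 51.7% of those with any replicate 1 peak. The list is a pick from these families, and of all genes with the stem Sox 7 of 19 had a broad peak, and of those with the stem Pou 2 of 16. Sox1, an early neural factor, had a peak of 2573 bp with a fold enrichment of 9.09, and the widest of its 2 replicate 2 peaks was 1589 bp. Sox4 had 2933 bp in replicate 1 and 1739 bp in replicate 2, and Sox7, an endodermal and endothelial factor, 1648 and 1735 bp. Sox3 had 1783 bp in replicate 1 and at most 601 bp in replicate 2. Foxq1 had 1866 and 1754 bp, and Neurog3 1518 and 1226 bp. Sox11, Sox12, Sox21, Foxo3 and Pou3f3 had a broad peak without a replicate 2 peak. Of 21 pluripotency factors 0 had a broad peak, and 14 of them, among them Sox2, Nanog and Klf4, had narrower ones. Peak lists hold no expression levels, so the stem cell identity of the samples could not be checked on these markers beyond the presence of peaks. Of 39 Hox genes 0 had a broad peak and 18 had narrower ones. Against 5.17% of all protein-coding genes and 12.5% of those with any peak, lists of these sizes are too short to set a count of 0 apart from the background.

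The list with the most host genes was that of the Zfp zinc finger genes. A broad peak lay at 88 of 397 Zfp genes (22.2%), or 26.9% of those with any replicate 1 peak. At 50 of the 88 a replicate 2 peak overlapped a broad one, beside 56.5% of all broad peaks, counted by peak. A replicate 2 peak lay within 500 bp of 57 of the 88, beside 67.8% of all protein-coding hosts. Zfp142 had a peak of 1648 bp with a fold enrichment of 2.61, Zfp408 one of 1813 bp with 6.95, Zfp770 one of 2353 bp with 4.35 and Zfp661 one of 1627 bp with 5.35. At Zfp408 the replicate 2 peak was 1441 bp wide, and at Zfp770 there was none. Zfp61 and Zfp94 shared a peak, as did Zfp809 and Zfp599. Zbtb genes pair zinc fingers with a BTB domain. Of 41, 13 (31.7%, or 33.3% of those with any replicate 1 peak) had a broad peak. The one of Zbtb5 was 2247 bp wide with a fold enrichment of 16.7, and those of Zbtb18 and Zbtb40 were 1753 and 1792 bp. Zbtb46 had one of 1925 bp and lay within 500 bp of a second that covers Abhd16b.

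Among chromatin regulators, 6 of 33 histone methyltransferase and demethylase genes (18.2%, or 21.4% of those with any replicate 1 peak) had a broad peak. Kmt2d, which encodes a histone H3 lysine 4 methyltransferase, had 4, of 3034, 2142, 1620 and 1509 bp, and replicate 2 had 1 peak of 398 bp, over the widest of them. The related Kmt2a had 2864 bp and no replicate 2 peak, Kmt2b had 2017 bp with a replicate 2 peak of 393 bp, and Kmt2e had 1765 and 1519 bp. Nsd1 and Kdm6b completed the 6. Of 29 chromatin remodellers, 4 (13.8%) had a broad peak. These were 16.7% of those with any replicate 1 peak, beside 12.5% of all such protein-coding genes. The peaks lay at Arid1a, Chd7, Ep400 and Srcap, with widths of 1502, 1832, 1544 and 1588 bp and no replicate 2 peak over any of these. The coactivators and corepressors counted 7 of 20 (35.0%, or 38.9% of those with any replicate 1 peak). The acetyltransferase genes Ep300 and Crebbp had 2448 and 2029 bp with fold enrichments of 2.84 and 4.12, Ncoa6 had 2637 bp and Med1 1728 bp. Bcorl1 had the widest of the group at 3388 bp, with a −log10 q of 180. Tet2 and Tet3, which oxidise methylcytosine, had peaks of 1718 and 1918 bp. They were 2 of 9 in the DNA methylation list, or 33.3% of those with any replicate 1 peak.

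Of 19 genes of the m6A machinery itself, 2 (10.5%) had a broad peak, and these were 14.3% of those with any replicate 1 peak, near the 12.5% of all such protein-coding genes. They were Rbm15 with 2094 bp and Rbm15b with 2797 bp, the RNA-binding adaptors of the methyltransferase complex. Their fold enrichments were 3.50 and 2.58, and replicate 2 had no peak over either. Of 15 genes for microRNA processing and silencing, 2 (13.3%) had a broad peak, Tnrc6b with 2327 bp and Tnrc6c with 2859 bp. These were 18.2% of those with any replicate 1 peak, beside the same 12.5%. Of 18 nuclear and imprinted lncRNAs, 2 (11.1%) had a broad peak, or 18.2% of those with any replicate 1 peak. The shares over all genes given above are of protein-coding ones, so they are no background for this list. The imprinted Peg13 had 2896 bp and a fold enrichment of 9.16, and Lncenc1, which is abundant in embryonic stem cells, had 2157 and 1582 bp. Large ubiquitin ligases counted 1 of 20 (6.25% of those with any replicate 1 peak), Rnf213 with 3443 bp. Their median gene body was 109682 bp, so long genes did not necessarily carry broad peaks. Of 84 cytosolic ribosomal protein genes, 9 had any replicate 1 peak and 1, Rpl36al, a broad one.

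**Figure D5:**
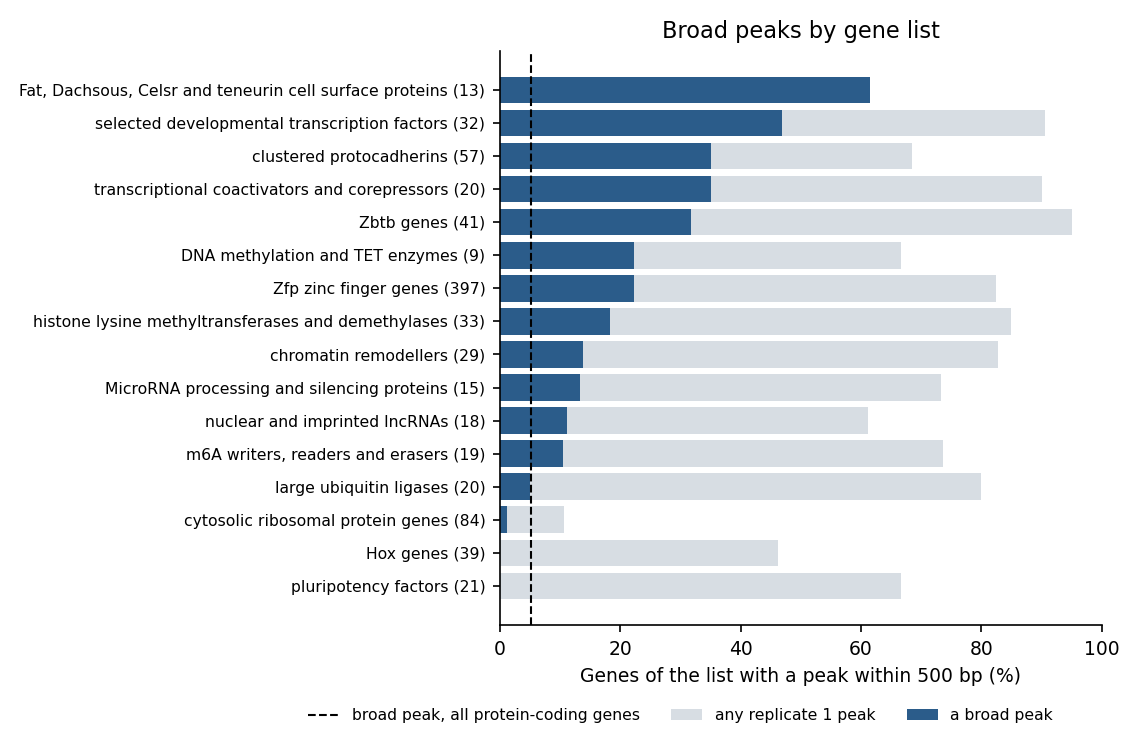
Genes with a broad peak (blue) and with any replicate 1 peak (grey) within 500 bp, as a percent of the genes in each of 16 lists (list size in parentheses). The dashed line is the 5.17% of all protein-coding genes with a broad peak. The Fat, Dachsous, Celsr and teneurin genes stood highest at 61.5%, and the Hox genes and pluripotency factors were at 0.

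Grouping genes by the stem of their symbols was a description added after values were seen. Many stems of at least 8 genes were compared, and the Frizzled receptors were picked for their high share. Pcdhga stood above them at 12 of 12 genes, over the shared peaks given earlier, and Kmt followed at 5 of 8. These counts stand beside 5.17% of all protein-coding genes and 12.5% of those with any replicate 1 peak. A broad peak lay at 7 of the 10 Fzd genes, and each of the 10 had a replicate 1 peak. These 7 were the short ones, with gene bodies of 2110 to 5745 bp. Fzd7 and Fzd8 had the widest peaks at 3300 and 3361 bp, with fold enrichments of 2.57 and 18.4. Fzd2 had 2083 bp and 4.05, Fzd4 1647 bp and 14.0, and Fzd10 2118 bp and 7.73. Replicate 2 had peaks at Fzd1, Fzd2, Fzd4, Fzd8 and Fzd9, the widest being 933 bp at Fzd9, and none at Fzd7 and Fzd10. Fzd3, Fzd5 and Fzd6 had no broad peak. Their gene bodies spanned 70023, 7193 and 32044 bp, and the widest peak among them was 1321 bp, at Fzd5. Of the carbohydrate sulfotransferase genes named Chst, also picked for their share, 6 of 14 had a broad peak.

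Several broad peaks in 1 gene were rare. Of the 1132 protein-coding hosts, 1055 had 1 broad peak within 500 bp, 52 had 2 and 25 had 3 or more. Most of the 25 are overlapping genes of the chromosome 18 protocadherin cluster that share the same broad peaks. In the gene bodies themselves, 76 genes had at least 2, and for 49 of these no broad peak was shared with another protein-coding gene. Zfhx3, a large homeodomain and zinc finger gene, had 4 that spanned 10192 bp in sum, and replicate 2 overlapped 3 of them. Kmt2d, described above, had 4 with a sum of 8305 bp. Map1a, a microtubule-associated protein gene, had 3 of 2222 to 3067 bp with replicate 2 peaks over 2. Zfp618 had 3 of 1575 to 2368 bp with 1 such overlap, and Bahcc1 had 3 of 1510 to 1868 bp, all 3 overlapped. Plec, Gli2, Stard9, Hivep1 and Usf3 had 2 each. Both of those in Gli2 had a replicate 2 peak, and neither of those in Plec, Stard9 or Hivep1 had one.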

How the data were processed

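The data are the peak lists that the authors deposited for the 2 wild-type m6A immunoprecipitations. Bowtie, SAMtools, MACS2 and the build mm10 appear, without versions, in the submitters' processing notes. The authors used MACS2 with its default settings to find peaks of enrichment over input, for each immunoprecipitation by itself. The input chosen and the handling of duplicate reads and strand are not given in the sources used here. In the deposited lists a peak has a fold enrichment over input (a ratio), a −log10 p and −log10 q, a summit and a score. The deposited score was not used, because in all but 1 peak it equals the −log10 q multiplied by 10 and cut to a whole number. The lists carry no read counts, so depth is unknown and nothing was adjusted for it.

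Width was the end minus the start of a peak. Peaks were joined to 49997 RefSeq gene bodies of GRCm38 (21900 protein-coding) within 500 bp, the distance used by the study. Strand came from the RefSeq promoter windows and was known for 79.9% of protein-coding genes. No RefSeq window of chromosome 18 was used. Summits were related to gene ends where exactly 1 protein-coding body held them. Overlap meant at least 1 bp. Two-sided Fisher's exact tests were adjusted by Benjamini-Hochberg over 6 tests, and intervals are exact binomial (Clopper-Pearson) or exact for a median, at 95%.

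The members, the gene lists and the tests were chosen with earlier results of these data known. Named genes are hosts of the 15 widest broad peaks, of the 10 with the highest fold enrichment and of the 10 with the highest −log10 q, the 10 genes with the most broad peaks, the 5 peaks on each side of the threshold, the 10 widest replicate 2 peaks and the leading 4 members of each list. Genes with overlapping bodies that share the same broad peaks were passed over when naming those with the most. Other members of lists, the genes covered to 90%, the 8 replicate 2 peaks over narrower peaks only, and the symbol stems were named after their values were seen. Of the 15 widest, 1 peak is not reported here. The joins were tested on simulated data. Scripts ran in Python 3.11.15 (scipy 1.17.1 for tests and intervals, pandas 2.3.3 and numpy 2.4.6 for tables, matplotlib 3.10.9 for figures). Alternatives were other widths, distances, overlaps and thresholds on fold enrichment or −log10 q, fewer replicate 1 peaks, and replicate 2 alone.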

Additional observations from a re-analysis of the deposited data

How the results depend on the processing

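No paired analysis was possible because only 1 group of samples was analysed. Over all peaks, Fisher's exact tests of the summit share and of width in replicate 2 kept their direction and call under the 5 alternatives with a test, 2 other widths, 2 stricter thresholds and fewer replicate 1 peaks. With replicate 1 reduced to the 5040 peaks of highest −log10 q, the summit shares were 53.7% for broad and 45.1% for narrower peaks (Fisher's exact test, p = 2.04e-06), while the call on the summit share was lost within each of the 3 highest groups of 10% by −log10 q (adjusted p = 0.344, 0.344 and 0.601 by the same exact test). The share of broad peaks that overlap replicate 2 was 50.5% and 60.3% at thresholds of 1000 and 2000 bp, 45.2% at a −log10 q of at least 5, 52.2% among peaks enriched 4-fold or more and 61.7% with replicate 1 reduced. It was 14.3% when 50% of both peaks had to overlap, against 12.9% for narrower peaks. The median fold enrichment was 7.12 and 8.57 at 1000 and 2000 bp. The number of host genes was 3089 and 519, and that of list genes with a broad peak 299 and 88, against 171. The median length of all host genes, 22348 bp, became 19969 bp within 2000 bp, 25058 bp for protein-coding genes and 25264 bp for the gene that holds the summit. Summits within 1000 bp of a gene end made up 21.0% and 14.1% of broad peaks at the same widths, against 21.7% of narrower peaks at each. The share was 4.63% within 500 bp and 41.3% within 2000 bp, where broad peaks exceeded narrower ones. Taking replicate 2 alone, without replicate 1, gave 68 host genes with a median length of 12766 bp, against 21153 bp for narrower peaks, 15 list genes and a median fold enrichment of 10.6. The causes of these changes were not tested. Depth is unknown for both lists, so the smaller number of peaks, broad ones included, in replicate 2 cannot be told apart from a difference in sequencing. Exons, the inputs and the knockout libraries were not analysed here.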
